A study of Mus musculus with 14 samples.

Results

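*Ephx1*, which encodes microsomal epoxide hydrolase, and 9 genes of the NRF2 pathway were followed through kidney RNA sequencing of 14 male C57BL/6J mice. The 10 genes were taken by symbol out of 21878 genes, and all 10 were listed for every mouse. The value of *Slc7a11* was 0 in WT control mouse 2 and *Cfb-/-* control mouse 3. *Ephx1* was picked because it was among the clearest diabetes-related changes in Cfb-deficient kidney, so its values in *Cfb-/-* mice are a description here. The other genes were *Nfe2l2*, *Keap1*, *Nqo1*, *Hmox1*, *Gclc*, *Gclm*, *Txnrd1*, *Srxn1*, and *Slc7a11*.

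There were 4 WT diabetic and 4 *Cfb-/-* diabetic kidneys, and 3 each of WT control and *Cfb-/-* control, each from its own mouse. *Cfb* encodes complement factor B, a protease of the alternative complement pathway, and was deleted in the whole animal. Diabetic mice received HFD, with 60% of calories as fat, together with streptozotocin (STZ), a toxin of pancreatic β cells, at 60 mg/kg on 5 days. Control mice received chow, with 10% of calories as fat, and citrate buffer without STZ. The sample descriptions put the time at 34 weeks for every group and do not say from when it was counted. They also repeat the STZ and HFD text for control mice and call the deletion a knockdown, and the groups were therefore taken from the sample names. RNA of kidney tissue holds many cell types, so fewer cells of a type and less RNA per cell cannot be told apart.

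NRF2, the product of *Nfe2l2*, is a transcription factor that is held by KEAP1 in the cytoplasm and marked there for degradation. Electrophiles and oxidants modify KEAP1, after which NRF2 accumulates, pairs with small MAF proteins, and binds antioxidant response elements. Its targets make glutathione, reduce thioredoxin and quinones, break down heme, and modify and export xenobiotics, and in kidney they are studied mainly in the tubular epithelium. EPHX1 hydrolyzes reactive epoxides to diols and is induced through NRF2 as well as through xenobiotic receptors.

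The core of the antioxidant response element was searched in the promoters, because the genes are grouped by a shared regulator. RefSeq promoter windows on GRCm38.p6, from 250 bases before to 50 bases after a start, were found for 8 of the 10 genes, and *Hmox1* and *Gclc* were not matched. The starts that define the windows were not always those of the gene records. The *Gclm* record begins at chr3:122245487, inside its window. The *Slc7a11* record, on the minus strand, begins at chr3:50499087, outside its window. The letters TGACNNNGC, read on both strands, were present for 4 of these 8 genes (*Nfe2l2*, *Gclm*, *Txnrd1*, and *Srxn1*) and in 13.99% of all 27025 genes with a window. The windows of *Ephx1*, *Keap1*, *Nqo1*, and *Slc7a11* did not hold these letters, which says nothing about elements elsewhere in those genes. The looser letters TGANNNNGC were also searched and were present in 45.05% of all genes. They were in the windows of *Keap1* and *Slc7a11* too, and not in those of *Ephx1* and *Nqo1*. None of the TGACNNNGC matches overlapped the AP-1 letters TGACTCA. Read on both strands, the AP-1 letters occurred 2 times in the *Srxn1* window. Their overlap with the looser letters was not counted. The stretches of *Ephx1* and *Nqo1*, without a match, are shown first as those of the genes with the largest changes, followed by 3 stretches with the match in capitals. All are written 5′ to 3′ on the strand of the gene and end before the start that defines the window.

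*Ephx1*, chr1:181017570-181017719, minus strand: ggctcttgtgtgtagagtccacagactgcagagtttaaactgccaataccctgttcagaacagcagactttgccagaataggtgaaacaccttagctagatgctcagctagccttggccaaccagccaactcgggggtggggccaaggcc
*Nqo1*, chr8:107403206-107403355, minus strand: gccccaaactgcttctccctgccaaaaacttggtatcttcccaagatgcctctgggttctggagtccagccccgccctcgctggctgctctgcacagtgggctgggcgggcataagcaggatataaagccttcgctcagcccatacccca
*Nfe2l2*, chr2:75704854-75704913, minus strand: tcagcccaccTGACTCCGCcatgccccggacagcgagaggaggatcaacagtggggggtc
*Gclm*, chr3:122245397-122245456, plus strand: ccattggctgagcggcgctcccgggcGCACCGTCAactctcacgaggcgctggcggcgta
*Txnrd1*, chr10:82859086-82859145, plus strand: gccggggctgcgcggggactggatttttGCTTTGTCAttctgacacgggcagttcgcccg

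The match began 240 bases before the start of *Nfe2l2*. It lay on the opposite strand 134 bases before the start that defines the *Gclm* window and 92 bases before 1 of the 3 starts of *Txnrd1*. In *Srxn1*, whose stretch is not shown, the match lay on the opposite strand 28 bases after the start. A match is a description of letters, not a measured binding site.

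The deposited values per gene and mouse name no unit and were read as FPKM, in which fragments are scaled for transcript length and for the depth of the library, and FPKM sums ranged from 330246 to 488196 per mouse. The number of reads is unknown, and the relative depth read from the steps between low values spanned 0.834 to 1. Correlations between mice of a group, over genes, were 0.990 to 0.995, and no pair of files was identical. *Cfb* was at 72.5 ± 11.2 FPKM (SD, n = 4) in WT diabetic and 106 ± 38.2 (SD, n = 3) in WT control mice, and at 1.34 ± 0.144 (SD, n = 4) and 2.16 ± 0.0913 (SD, n = 3) in *Cfb-/-* diabetic and control mice, so the libraries matched their genotype labels. Markers of proximal tubule, the main cell type of kidney cortex, were present in all mice and lower with diabetes, with summed levels of 2096 to 3401 FPKM in diabetic and 5022 to 5581 in control mice. In 3 WT diabetic and 2 *Cfb-/-* control mice, 7 markers of urothelium summed to 10.0 to 51.1 FPKM, against 0.279 to 3.58 in the other 9 mice.

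Whether diabetes changed the pathway in WT kidney was tested with limma on log2(FPKM + 0.1), and a gene was called at a Benjamini-Hochberg adjusted p under 0.05 over 14912 genes. *Ephx1*, *Nfe2l2*, *Nqo1*, *Gclc*, *Txnrd1*, and *Srxn1* rose, and none of the 9 genes tested fell. This is 6 of 9 higher against 36.2% of all genes called higher, 9.97% called lower, and 46.1% called in either direction. The median log2 fold change of the 9 genes was 0.55, against 0.29 over all genes tested. *Slc7a11* did not reach 0.1 FPKM in 3 mice and was left out of the fit.

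**Figure D1:**
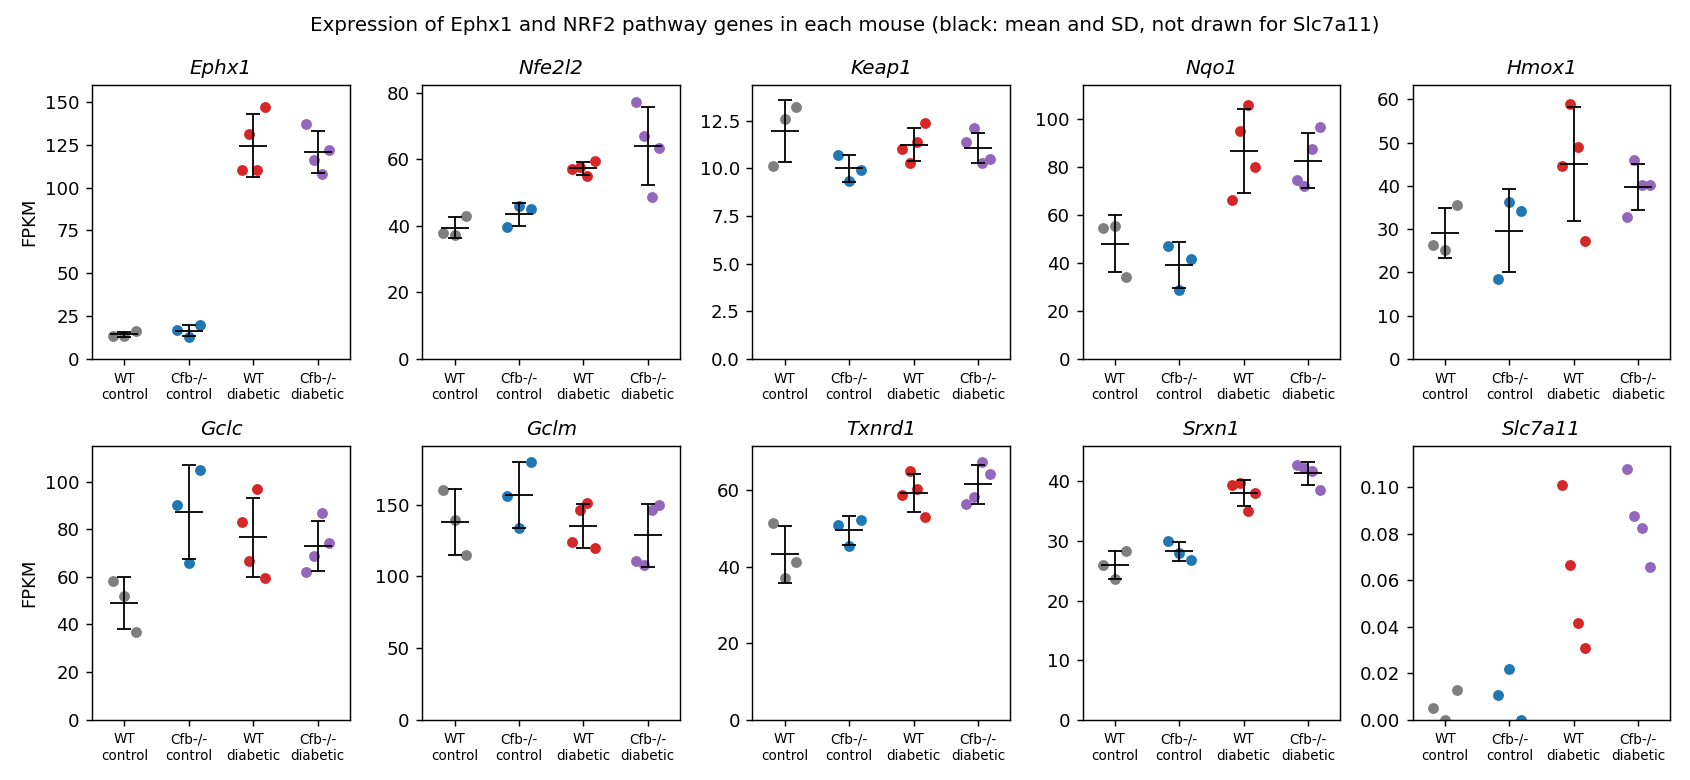
FPKM (linear y axis from 0) of the 10 genes in each mouse, with 1 point per mouse, the 4 groups on the x axis, and the mean and SD in black except for *Slc7a11*. *Ephx1* was at 108 to 147 FPKM in the 8 diabetic mice and at 13 to 19.6 in the 6 control mice.

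*Ephx1* stood at 110, 131, 110, and 147 FPKM in the 4 WT diabetic mice and at 13.2, 13.7, and 16.1 in the 3 WT control mice. Every diabetic mouse thus lay far above every control mouse. The group means were 124 ± 18.1 (SD, n = 4) and 14.3 ± 1.55 FPKM (SD, n = 3), and the fitted change was 8.60-fold (log2 fold change 3.10, SE 0.15, limma adjusted p = 1.37e-08). The exact two-sided permutation test gave p = 0.0286, the smallest that 4 mice against 3 allow. None of these mice entered the contrast from which *Ephx1* was picked. The limma p and the rank by p, however, rest on a spread estimated from all 14 mice, including those of that contrast. The permutation test used the WT mice alone. By p, *Ephx1* was number 3 of 14912 genes, and by fold it was number 13 of the 4647 genes whose mean log2 level was at least that of 10 FPKM.

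The *Ephx1* levels of *Cfb-/-* mice were 137, 116, 108, and 122 FPKM with diabetes and 17.2, 13, and 19.6 without. These groups were also far apart, with a fitted change of 7.31-fold, as its choice requires. The ranges of the diabetic groups overlapped, and the mean of *Cfb-/-* diabetic mice, 121 ± 12.0 FPKM (SD, n = 4), lay within 1 SD of that of WT diabetic mice. FPKM is scaled for transcript length, so levels can also be set beside those of the other members. In control mice of both genotypes, *Ephx1* had the eighth highest mean of the 10 genes, and in diabetic mice of both genotypes it had the second, below *Gclm* alone.

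*Nfe2l2*, the gene of NRF2 itself, was at 57.0, 57.7, 55.0, and 59.6 FPKM in WT diabetic mice and at 37.8, 37.3, and 43.1 in WT control mice. The groups did not overlap, and the rise was 1.46-fold (log2 fold change 0.54, SE 0.13, limma adjusted p = 0.00365). In *Cfb-/-* mice it was at 77.1, 66.9, 48.7, and 63.3 FPKM with diabetes and at 39.5, 45.9, and 45.0 without, and the rise was 1.45-fold (log2 fold change 0.54, limma adjusted p = 0.00445). The spread was wider among *Cfb-/-* diabetic mice (SD 11.8 FPKM) than among WT diabetic mice (SD 1.90), and the difference in spread was not tested. *Keap1*, the repressor of NRF2, stayed between 9.35 and 13.2 FPKM in all 14 mice. Its log2 fold change with diabetes was -0.08 in WT mice (SE 0.11, limma adjusted p = 0.560) and 0.14 in *Cfb-/-* mice (SE 0.11, limma adjusted p = 0.339), and the latter turned negative with median-ratio and quantile scaling.

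*Nqo1*, which encodes the quinone reductase widely used as a readout of NRF2, had the largest change of the members other than *Ephx1*. It was at 66.2, 95.2, 106, and 79.9 FPKM in WT diabetic mice and at 54.5, 55.4, and 34.2 in WT control mice (log2 fold change 0.86, SE 0.21, limma adjusted p = 0.00446). In *Cfb-/-* mice it was at 74.8, 72.0, 87.4, and 96.6 FPKM with diabetes and at 47.2, 28.7, and 41.6 without (log2 fold change 1.10, SE 0.21, limma adjusted p = 0.00107). All diabetic mice exceeded all control mice in both genotypes.

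*Txnrd1* and *Srxn1* encode thioredoxin reductase and sulfiredoxin, which restore thioredoxin and overoxidized peroxiredoxins. *Srxn1* varied little within groups, with SDs of 1.62 to 2.34 FPKM. It was at 35.0 to 39.7 FPKM in WT diabetic against 23.6 to 28.3 in WT control mice, and at 38.5 to 42.7 in *Cfb-/-* diabetic against 26.8 to 30.0 in *Cfb-/-* control mice. The log2 fold change was 0.55 in each genotype (SE 0.09, limma adjusted p = 2.33e-04 in WT and 2.77e-04 in *Cfb-/-* mice). *Txnrd1* was at 58.8, 64.9, 60.3, and 52.9 FPKM in WT diabetic and at 51.5, 37.0, and 41.3 in WT control mice. It rose in WT mice (log2 fold change 0.46, SE 0.12, limma adjusted p = 0.00558) and did not pass the threshold in *Cfb-/-* mice (0.31, SE 0.12, limma adjusted p = 0.0504). There it was at 56.5, 58.3, 67.3, and 64.1 FPKM with diabetes and at 50.9, 45.3, and 52.3 without, and the groups did not overlap. It passed in *Cfb-/-* mice without WT control mouse 1 (adjusted p = 0.0215) or 2 (adjusted p = 0.0308), which changed only the estimate of the spread. Median-ratio scaling ended the call of *Txnrd1* in WT mice (adjusted p = 0.0734).

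*Gclc* and *Gclm* encode the 2 subunits of glutamate-cysteine ligase, which makes the precursor of glutathione. *Gclc*, the catalytic subunit, was at 83.1, 66.6, 96.8, and 59.5 FPKM in WT diabetic mice and at 58.4, 52.0, and 37.0 in WT control mice. The lowest diabetic mouse was only just above the highest control mouse, and the rise was 1.56-fold (log2 fold change 0.64, SE 0.20, limma adjusted p = 0.0192). The call was lost without WT diabetic mouse 3 (adjusted p = 0.0557), without WT control mouse 3 (adjusted p = 0.102), and with median-ratio scaling (adjusted p = 0.110). *Gclc* in *Cfb-/-* mice was at 62.1, 68.7, 86.6, and 74.4 FPKM with diabetes and at 90.3, 66.0, and 105 without, and the groups overlapped (log2 fold change -0.24, SE 0.20, limma adjusted p = 0.378). *Gclm*, the modifier subunit, had the highest mean of the 10 genes in each group and ranged from 108 to 180 FPKM over all mice. Its log2 fold change was -0.02 in WT mice (SE 0.16, limma adjusted p = 0.917), with a positive sign under quantile scaling, and -0.29 in *Cfb-/-* mice (SE 0.16, limma adjusted p = 0.165).

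*Hmox1* encodes the inducible heme oxygenase and is also expressed by macrophages that take up red cells. It was at 44.7, 58.9, 48.9, and 27.3 FPKM in WT diabetic mice and at 26.4, 25.1, and 35.7 in WT control mice. The fourth diabetic mouse lay within the control range, and the test was not passed (log2 fold change 0.59, SE 0.26, limma adjusted p = 0.0695). Without that mouse it was passed (0.81, adjusted p = 0.0122), and likewise without *Cfb-/-* control mouse 1 (adjusted p = 0.0382). The same mouse had a summed level of 5 red blood cell markers of 780 FPKM, against 159 to 229 in the other 3 WT diabetic mice, and the part of this in the *Hmox1* value was not tested. *Hmox1* was at 32.8, 45.9, 40.2, and 40.2 FPKM in *Cfb-/-* diabetic mice and at 18.6, 36.2, and 34.2 in *Cfb-/-* control mice, which overlapped, and the log2 fold change was 0.47 (SE 0.26, limma adjusted p = 0.174).

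*Slc7a11* encodes the cystine importer that feeds glutathione synthesis and was barely detected. Its values were 0.101, 0.0666, 0.0415, and 0.0308 FPKM in WT diabetic mice and 0.00505, 0, and 0.0128 in WT control mice. In *Cfb-/-* mice they were 0.108, 0.0876, 0.0824, and 0.0659 FPKM with diabetes and 0.0105, 0.0217, and 0 without. The groups did not overlap in either genotype (exact two-sided permutation test on log2 values, p = 0.0571 in WT and p = 0.0286 in *Cfb-/-* mice). No value was above 0.108 FPKM, and no fold is given.

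**Figure D2:**
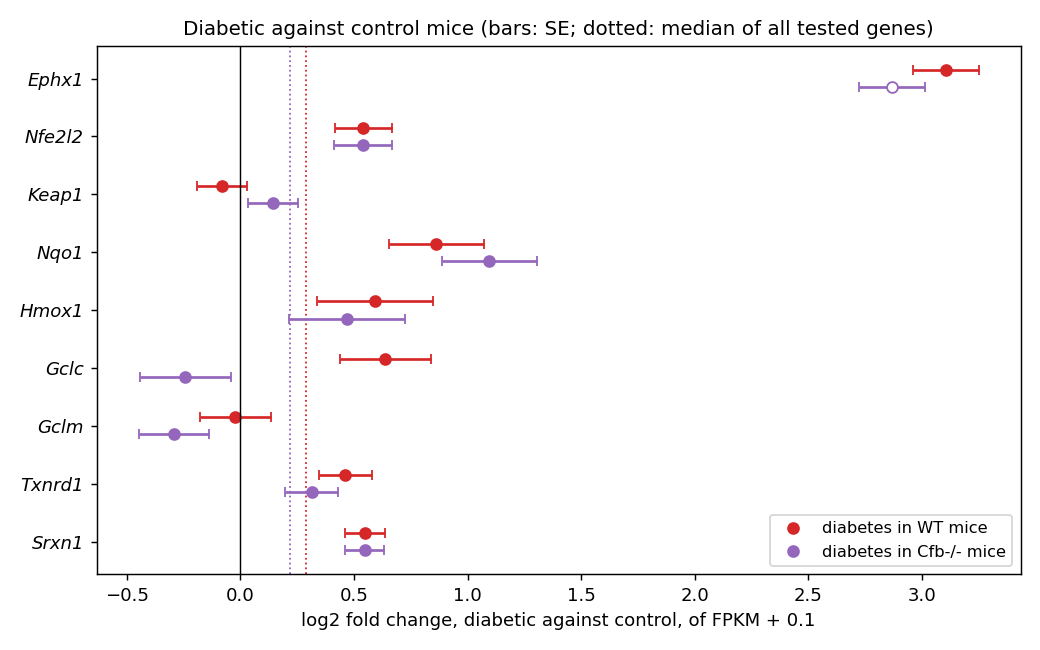
Log2 fold change of diabetic against control mice (x axis) for 9 genes (y axis), with the SE as bars, WT mice in red and *Cfb-/-* mice in purple, and the median of all genes tested as dotted lines at 0.29 and 0.22. The open marker of *Ephx1* is a value without a test, and apart from *Ephx1* all points lie between -0.29 and 1.10.

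In *Cfb-/-* mice, *Nfe2l2*, *Nqo1*, and *Srxn1* rose with diabetes and none of the 8 genes tested fell. This is 3 of 8 higher, against 27.4% of all genes called higher, 6.4% called lower, and 33.8% called in either direction. The median log2 fold change of the 8 genes was 0.39, against 0.22 over all genes. Counted without a test, groups did not overlap, with diabetic mice higher, for 6 of 9 genes in WT mice, against 35.5% of all genes, and for 4 of 8 in *Cfb-/-* mice, against 33.6%.

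The upward shift of all genes depended on scaling. Median-ratio scaling moved the median log2 fold change of all genes from 0.29 to 0.10 in WT mice and from 0.22 to 0.05 in *Cfb-/-* mice, and quantile normalization moved both to -0.05. The share of called genes that were higher went from 78.4% to 59.0% and 44.2% in WT mice, and from 81.0% to 64.3% and 49.1% in *Cfb-/-* mice. Relative to the median of all genes, the log2 changes in WT mice were 2.82 for *Ephx1*, 0.57 for *Nqo1*, 0.35 for *Gclc*, 0.26 for *Srxn1*, 0.25 for *Nfe2l2*, and 0.17 for *Txnrd1*. With median-ratio scaling, 4 of 9 genes rose in WT mice, and in *Cfb-/-* mice 3 of 8 rose and *Gclm* fell (-0.47, adjusted p = 0.0458).

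Markers of other cells moved with diabetes as well. Over all genes, 36.2% were called higher and 9.97% lower in WT mice, and 27.4% and 6.4% in *Cfb-/-* mice. All 8 macrophage markers rose in WT mice and 7 of 8 in *Cfb-/-* mice, with summed levels of 225 to 412 FPKM in diabetic and 56.8 to 88.8 in control mice. All 6 markers of injured tubule rose in both genotypes, from 233 to 303 FPKM in control mice to 1182 to 2383 in diabetic mice. The proximal tubule list had 10 markers, of which 6 fell in WT and 8 in *Cfb-/-* kidneys. The part of these cell types in the changes of *Ephx1* and the NRF2 genes was not tested. Urothelium markers rose in WT mice (7 of 7) and not in *Cfb-/-* mice (0 of 7), and adipocyte markers rose in 6 of 6 and 1 of 6. In WT diabetic mice 1 to 4, the urothelium sums were 0.721, 36.9, 51.1, and 17.996 FPKM, beside *Ephx1* levels of 110, 131, 110, and 147 FPKM, and the part of urothelium in these levels was not tested. Leaving out the 5 mice with high urothelium markers, a choice made after seeing the data, left 1 WT diabetic and 1 *Cfb-/-* control mouse, which the fit assumes to vary like the mice of the other groups. *Ephx1* was then 2.93 higher in WT mice on the log2 scale (limma adjusted p = 3.57e-04), and 2 of 9 genes, *Ephx1* and *Srxn1*, stayed called in WT mice and 2 of 8, *Nqo1* and *Srxn1*, in *Cfb-/-* mice.

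Whether *Cfb* deletion altered the pathway was compared within control and within diabetic mice, which are the same mice as above. In control mice 0 of the 8 genes tested passed, against 0.00671% of all genes, which is *Cfb* alone. At an unadjusted p under 0.05, 1 of the 8 genes and 2614 of all genes (17.5%) were counted. The 1 gene was *Gclc*, which was higher in all 3 *Cfb-/-* control mice (66.0 to 105 FPKM) than in all 3 WT control mice (37.0 to 58.4). Its log2 fold change was 0.83 (SE 0.22, limma adjusted p = 0.236), and the exact two-sided permutation p of 0.1 is the smallest that 3 mice against 3 allow. It passed only without WT control mouse 1 (0.96, adjusted p = 0.0308), when 1724 genes were called in all.

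In diabetic mice 0 of 8 genes passed, again against 0.00671% of all genes, and 0 had an unadjusted p under 0.05 with limma, against 448 of all genes. Log2 fold changes lay between -0.13 for *Hmox1* and 0.14 for *Nfe2l2*. *Nfe2l2* means were 64.0 ± 11.8 FPKM in *Cfb-/-* diabetic and 57.3 ± 1.90 in WT diabetic mice (SD, n = 4 each), and the difference was within the spread (exact two-sided permutation p = 0.429). For *Srxn1*, the means were 41.3 ± 1.91 and 38.0 ± 2.14 FPKM (SD, n = 4 each; exact two-sided permutation p = 0.0857).

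**Figure D3:**
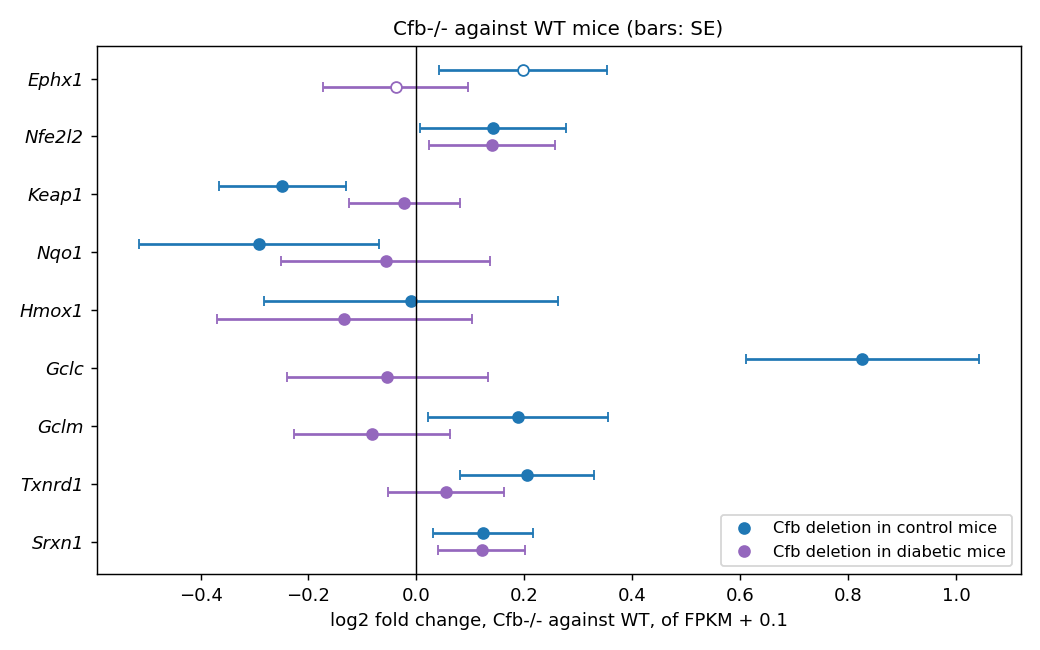
Log2 fold change of *Cfb-/-* against WT mice (x axis) for 9 genes (y axis), with the SE as bars, control mice in blue and diabetic mice in purple; open markers of *Ephx1* are values without a test. *Gclc* in control mice, at 0.83, lies apart from the other points, which lie between -0.29 and 0.20.

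The effect of diabetes on *Gclc* was 0.88 lower on the log2 scale in *Cfb-/-* than in WT mice, and this difference did not pass over all genes (SE 0.28, limma adjusted p = 0.779, exact permutation p = 0.06 over 1400 assignments). No other member of the 8 tested had an unadjusted p under 0.05 for the interaction, and 0 of all genes passed adjusted p, against 861 at an unadjusted p under 0.05 with limma.

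Deviations of single mice from their group means were compared between the genes as a description, over 14 mice and 36 pairs, all from the same libraries. *Nqo1* and *Gclm* varied together (Pearson's r = 0.823, Spearman's rho = 0.705, and r = 0.747 without the 2 mice farthest from the median), as did *Gclc* and *Gclm* (r = 0.778, rho = 0.732, and r = 0.681 without 2 mice). *Nfe2l2* varied in the opposite direction to *Gclc* (r = -0.607, rho = -0.697, and r = -0.649 without 2 mice). *Keap1* did so to *Txnrd1* (r = -0.717, rho = -0.666, and r = -0.592 without 2 mice). The pairs named are examples from the 36. *Gclm* levels are set here beside summed proximal tubule markers, in FPKM and in order of mouse number. They were 111, 108, 146, and 150 beside 2096, 2163, 3216, and 3355 in *Cfb-/-* diabetic mice. WT diabetic mice had 124, 146, 151, and 120 beside 2825, 3330, 3401, and 2596. *Cfb-/-* control mice had 156, 134, and 180 beside 5155, 5022, and 5137. WT control mice had 160, 139, and 115 beside 5581, 5115, and 5242. The part of cell types in the correlations was not tested. The tested genes whose log2 levels over the 14 mice were most like those of *Ephx1* were *Spp1* (r = 0.992), *C3* (r = 0.992), *E2f1* (r = 0.988), *Orai2* (r = 0.988), and *2810417H13Rik* (r = 0.988), all of which were higher in diabetic mice of both genotypes. In deviations from group means they were *Swsap1* (r = 0.946), *Gyg* (r = 0.921), *Ttc39a* (r = 0.920), *Lrrn2* (r = 0.899), and *Pik3cg* (r = 0.895). *Ephx1* was picked for its difference between diabetic and control mice, so high r over the 14 mice with other such genes follows from the choice. Both sets are the highest among 14912 tested genes, and no r was tested.

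**Figure D4:**
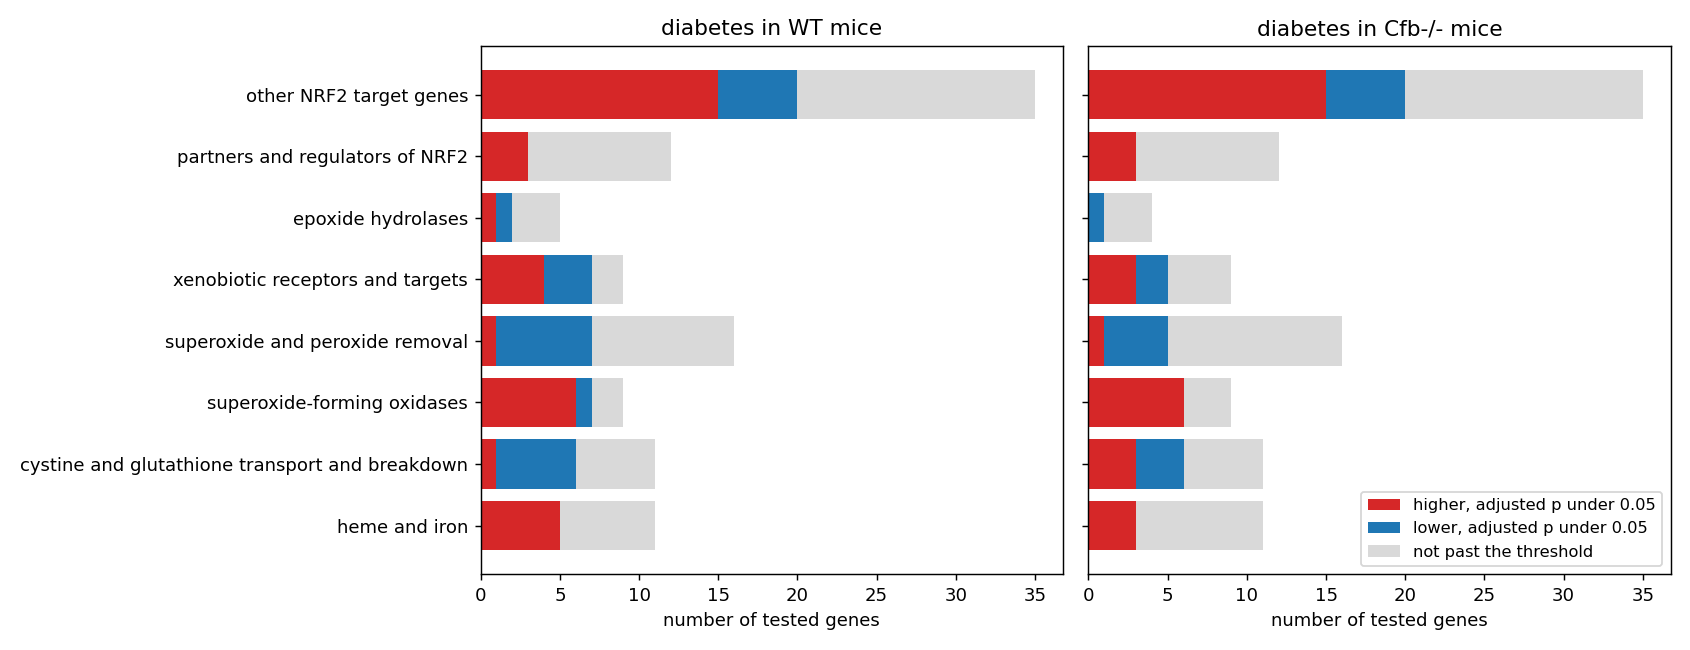
Number of tested genes (x axis, linear from 0) in 8 further gene lists (y axis) that were higher (red), lower (blue), or not past an adjusted p of 0.05 (grey) with diabetes in WT mice (left) and *Cfb-/-* mice (right). Superoxide-forming oxidases were mostly higher, with 6 of 9 in each genotype, against 36.2% of all genes in WT and 27.4% in *Cfb-/-* mice.

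Beyond the members, 35 further NRF2 target genes were tested, and 15 rose and 5 fell in each genotype. This is 42.9% higher, against 36.2% of all genes in WT and 27.4% in *Cfb-/-* mice, and 14.3% lower, against 9.97% and 6.4%. Their median log2 fold change was 0.35 in WT and 0.26 in *Cfb-/-* mice, against 0.29 and 0.22 over all genes. With median-ratio scaling 14 rose and 11 fell in WT mice, and with quantile normalization 13 rose and 1 fell. *Cbr3*, a carbonyl reductase, rose from 1.46 ± 0.286 (SD, n = 3) to 13.4 ± 3.47 FPKM (SD, n = 4) in WT mice (log2 fold change 3.10) and by 2.97 in *Cfb-/-* mice. *Abcc3*, an export pump for conjugates, rose by 2.80 and 2.21 on the log2 scale. *Gsta1*, a glutathione S-transferase, rose by 3.15 and 3.26, and *Akr1b8*, an aldo-keto reductase, by 2.31 and 1.94. Among the genes that fell, *Me1*, malic enzyme, had log2 fold changes of -0.68 and -1.03, and *Blvra*, biliverdin reductase, of -0.65 and -0.43, both named after their values were seen. Quantile normalization ended the call of *Me1* in WT mice. *Gsta1* and *Akr1b8* have near-identical relatives, and their values are uncertain for that reason.

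Among 12 partners and regulators of NRF2, 3 rose and 0 fell in each genotype, with a median below that of all genes (0.19 in WT and 0.07 in *Cfb-/-* mice). The share higher was 25.0% in each genotype, below the 36.2% of all genes in WT and 27.4% in *Cfb-/-* mice. *Maff*, a small MAF partner, rose by 1.34 in WT and 1.95 in *Cfb-/-* mice on the log2 scale, and *Nfe2l1*, a relative of *Nfe2l2*, by 0.72 and 0.61. The third was *Gsk3b*, a kinase that marks NRF2 for degradation, in WT mice (0.59, against 0.34 and adjusted p = 0.157 in *Cfb-/-* mice) and the small MAF gene *Mafk* in *Cfb-/-* mice (0.40, against 0.24 and adjusted p = 0.139 in WT mice), and neither stayed called with either of the other scalings.

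Of the 4 epoxide hydrolases other than *Ephx1*, 0 rose and 1 fell in each genotype. Over all genes, 36.2% were higher and 9.97% lower in WT mice, and 27.4% and 6.4% in *Cfb-/-* mice. *Ephx2*, the soluble enzyme that degrades fatty acid epoxides, fell from 196 ± 24.2 (SD, n = 3) to 119 ± 9.40 FPKM (SD, n = 4) in WT mice (log2 fold change -0.71, SE 0.12, limma adjusted p = 3.26e-04) and from 158 ± 7.80 (SD, n = 3) to 106 ± 14.8 FPKM (SD, n = 4) in *Cfb-/-* mice (-0.59, adjusted p = 0.00166). *Ephx3* and *Ephx4* had group means of at most 0.316 FPKM, and *Lta4h*, which makes leukotriene B4, had group means of 16.1 to 18.6 FPKM; these 3 did not pass in either genotype. Of 9 tested xenobiotic receptors and their targets, 4 rose and 3 fell in WT mice, and 3 rose and 2 fell in *Cfb-/-* mice. In WT mice, 44.4% were higher and 33.3% lower, against 36.2% and 9.97% of all genes. In *Cfb-/-* mice, 33.3% were higher and 22.2% lower, against 27.4% and 6.4% of all genes. *Ahr*, the aryl hydrocarbon receptor, rose by 1.25 and 0.88, and *Cyp1b1*, a target of it, by 1.53 and 2.15. *Cyp1a1*, also a target of it, rose by 0.94 in WT mice. In *Cfb-/-* mice its log2 fold change was 0.52 and did not pass (limma adjusted p = 0.129). *Cyp2b10*, the standard target of the receptor CAR, fell by 1.42 and 2.41, from 0.654 to 0.157 and from 0.976 to 0.124 FPKM. *Nr1i3*, the gene of CAR, had group means of at most 0.328 FPKM and rose by 0.86 and 0.98. Quantile normalization ended the calls of *Nr1i3* in both genotypes, that of *Ahr* in *Cfb-/-* mice, and that of *Cyp1a1* in WT mice. *Cyp1a1* then had log2 fold changes of 0.15 in WT and -0.19 in *Cfb-/-* mice.

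Of 16 enzymes that remove superoxide and peroxide, 1 rose, 6 fell, and 9 did not pass in WT mice, and 1 rose, 4 fell, and 11 did not pass in *Cfb-/-* mice. In WT mice, 6.2% were higher and 37.5% lower, against 36.2% and 9.97% of all genes. In *Cfb-/-* mice, 6.2% were higher and 25.0% lower, against 27.4% and 6.4% of all genes. The median log2 fold change of the enzymes was -0.28 in WT mice, which became 0.05 with quantile normalization, where 2 fell. *Sod1*, the cytosolic superoxide dismutase, fell by 0.88 and 0.66 on the log2 scale and was at 1085 ± 240 (SD, n = 3) in WT control and 582 ± 58.5 FPKM (SD, n = 4) in WT diabetic mice. *Prdx5*, a peroxiredoxin, fell by 0.62 and 0.55. *Sod3*, the extracellular dismutase, fell by 0.44 and 0.47. Quantile normalization ended the calls of *Prdx5* and *Sod3* in both genotypes and not those of *Sod1*. *Gpx1*, a glutathione peroxidase, fell by 0.55 in WT mice and had a log2 fold change of -0.22 in *Cfb-/-* mice (limma adjusted p = 0.358), and both signs turned positive with quantile normalization. *Gpx8*, an endoplasmic reticulum peroxidase, rose by 0.72 and 0.96, and its call in WT mice was lost with both of the other scalings.

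Of 9 tested genes of superoxide-forming oxidases, 6 rose and 1 fell in WT mice, and 6 rose and 0 fell in *Cfb-/-* mice. The share higher was 66.7% in each genotype, against 36.2% of all genes in WT and 27.4% in *Cfb-/-* mice. With quantile normalization 4 rose in WT mice, without *Ncf4*. The gene that fell in WT mice was *Cyba*, from 529 ± 126 (SD, n = 3) to 305 ± 40.6 FPKM (SD, n = 4). Its log2 fold change was -0.78 in WT (limma adjusted p = 0.00177) and -0.43 in *Cfb-/-* mice (limma adjusted p = 0.0549). *Nox4* had log2 fold changes of -0.33 and -0.31 and did not pass in either genotype. *Cyba* and *Nox4* were named after their values were seen. *Cybb*, the catalytic subunit of the phagocyte oxidase, rose by 2.01 and 2.15 on the log2 scale, from 1.41 to 5.89 and from 1.39 to 6.35 FPKM. Its cytosolic subunits *Ncf1* and *Ncf4* rose by 1.73 and 1.19 in WT and by 1.69 and 2.26 in *Cfb-/-* mice, and *Rac2*, its GTPase, by 1.17 and 1.95. *Cybb*, *Ncf1*, *Ncf4*, and *Rac2* are expressed in phagocytes, and macrophage markers rose with diabetes, as given above. The part of these cells in the changes was not tested.

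Of 11 genes for transport and breakdown of cystine and glutathione, 1 rose and 5 fell in WT mice, and 3 rose and 3 fell in *Cfb-/-* mice. In WT mice, 9.1% were higher and 45.5% lower, against 36.2% and 9.97% of all genes. In *Cfb-/-* mice, 27.3% were higher and 27.3% lower, against 27.4% and 6.4% of all genes. *Ggct*, a cyclotransferase, fell by 1.33 and 1.45, and *Ggt1*, the brush-border enzyme that cleaves glutathione, by 0.94 and 0.82. *Dpep1*, a dipeptidase of the same membrane, fell by 0.76 in WT mice and had a log2 fold change of -0.36 in *Cfb-/-* mice (limma adjusted p = 0.183). *Oplah*, an oxoprolinase, rose by 0.79 and 0.49, and median-ratio scaling ended its call in *Cfb-/-* mice. *Chac2*, which degrades glutathione, fell by 0.44 and 0.51. *Ggt5*, a relative of *Ggt1*, rose by 1.38 in *Cfb-/-* mice and had a log2 fold change of 0.41 in WT mice (limma adjusted p = 0.192). Of 11 genes for heme and iron, 5 rose in WT and 3 in *Cfb-/-* mice, and 0 fell. The shares higher were 45.5% and 27.3%, against 36.2% and 27.4% of all genes. *Trf*, which encodes transferrin, rose by 1.40 and 1.73, and *Lrp1*, a receptor for heme carriers, by 1.40 and 1.46. *Cd163*, the macrophage receptor for hemoglobin, rose by 0.80 and 0.91, calls that quantile normalization ended. *Hp*, which encodes haptoglobin, rose by 3.54 in WT mice, from 0.174 ± 0.113 (SD, n = 3) to 2.96 ± 0.562 FPKM (SD, n = 4), and had a log2 fold change of 0.84 in *Cfb-/-* mice (limma adjusted p = 0.307), where 1 control mouse was at 2.42 FPKM. Of 107 genes of these lists, 0 were called in a comparison of genotypes with limma, and 24 (22.4%) had an unadjusted p under 0.05 in control mice, against 17.5% of all genes, and 4 (3.74%) in diabetic mice, against 448 of 14912 genes.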

How the data were processed

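Kidney RNA of 14 mice was sequenced as stranded mRNA libraries. The authors deposited 1 table per mouse, and its values were read as FPKM because they are not whole numbers and their sums differ between mice. The submitters' notes name Trimmomatic, HISAT2, Cufflinks, HTSeq, DESeq, and GRCm38.p6, without roles or versions. FPKM carry no read counts, so count tests were not run and the precision of low values is unknown.

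Group means were fitted with limma 3.58.1 in R 4.3.3 (mean-variance trend) to log2(FPKM + 0.1) of all 14 mice without further scaling, for genes with at least 0.1 FPKM in at least 3 mice. Fold changes are on this scale, which understates those of low genes. P-values were adjusted by Benjamini-Hochberg over 14912 genes, and the fit was checked on simulated data. Exact permutation tests used the same log2 values. Python 3.11.15 served for tables, promoters, and figures. The study describes the samples as separate mice.

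The members and lists were chosen with earlier results of these data known. Genes named from a list are those called with the largest changes, up to 4 per genotype. Alternatives were log2(FPKM + 1), log2(FPKM + 0.01), no filter, a filter at 1 FPKM, median-ratio scaling, quantile normalization, the compared groups alone, a replicate block, and leaving out each mouse. Leaving out mice with a urothelium marker sum of at least 10 FPKM was added after seeing the data.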

Additional observations from a re-analysis of the deposited data

How the results depend on the processing

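Of 112 counts of called genes over all alternatives, 110 stayed within 1.5 times the reported count. The exceptions were *Cfb* deletion in control mice without WT control mouse 1, with 1 call (*Gclc*), and diabetes in WT mice without the 5 mice with high urothelium markers, with 2 calls. Leaving out each mouse in turn gave 5 to 7 calls for diabetes in WT mice, 3 to 4 in *Cfb-/-* mice, 0 to 1 for the deletion in control mice, and 0 to 0 in diabetic mice and for the interaction. *Ephx1* in WT mice stayed between 2.90 and 3.19 on the log2 scale over all alternatives. Among the members, signs turned only for values that had not passed. Of the genes named from the lists, *Gpx1* in WT mice had passed and went from -0.55 to 0.071 with quantile normalization. With quantile normalization, *Gclm* in WT mice was 0.18, *Keap1* with diabetes in *Cfb-/-* mice -0.017, *Hmox1* for the deletion in control mice 0.034, and *Nqo1* for the deletion in diabetic mice 0.00613. *Keap1* with diabetes in *Cfb-/-* mice was -0.032 with median-ratio scaling, and *Gclc* was 0.13 without the mice with high urothelium markers. Leaving out 1 mouse at a time moved *Gclm* with diabetes in WT mice from -0.15 to 0.091, and *Hmox1* for the deletion in control mice from -0.18 to 0.29. For the deletion in diabetic mice it moved *Nqo1* from -0.18 to 0.045, *Keap1* from -0.065 to 0.023, *Hmox1* from -0.35 to 0.014, and *Gclc* from -0.17 to 0.068. The causes were not tested. *Txnrd1* in *Cfb-/-* mice passed with log2(FPKM + 1) (adjusted p = 0.0495), with quantile normalization (0.0368), with the 2 groups alone (0.0363), and without WT control mouse 1 (0.0215) or 2 (0.0308).

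Deviations of mice with the same replicate number had correlations of -0.39 to 0.24. These were not set beside those of mice with unlike numbers, so they cannot tell whether the numbers pair the mice. The replicate block gave 7, 3, 0, 0, and 0 calls and added *Hmox1* in WT mice (0.70, adjusted p = 0.0234). DESeq2 was not run, since it needs counts, and the interaction has no fit on 2 groups. The unknown depth limits *Slc7a11* and other genes near 0, and 3 or 4 mice per group limit the comparisons of genotypes.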
